A study of Mus musculus with 24 samples.

Results

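Secretoglobins and BPI-fold proteins are small secreted products of the airway lining, and 6 of their genes were followed here by name (Scgb1a1, Scgb3a1, Scgb3a2, Scgb1c1, Bpifa1 and Bpifb1) among 35855 genes with summed counts. RNA was sequenced from 24 libraries, each made from 1000 airway epithelial cells sorted from the trachea of untreated wild-type (WT) female mice, with the strain given as C57BL/6 in the series title. The labels name 3 sorted groups of 8 libraries: BCAM HI and BCAM LO, which the title places among basal epithelial cell subsets, and DIFFERENTIATED EPCS, written DIFFERENTIATED below. In each group replicates 1 to 5 carry the label batch 1 and replicates 6 to 8 batch 2; the sources used here do not say what the batch stands for, how old the mice were or how the cells were gated. BCAM, basal cell adhesion molecule, is a laminin-binding surface protein. No label says that the libraries of a group come from separate mice, so p-values measure only the spread between these samples, which may be technical.

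Secretory (club) cells and goblet cells of the airway release these proteins onto the surface, and basal cells are the progenitors from which secretory cells arise. Secretoglobins form small disulfide-linked dimers: Scgb1a1 encodes the club cell secretory protein, the classical marker of these cells, and Scgb3a1 and Scgb3a2 encode further airway secretoglobins. BPI-fold proteins share a lipid-binding fold with the bactericidal/permeability-increasing protein: Bpifa1 encodes SPLUNC1, a surfactant-like protein of the airway surface, and Bpifb1 encodes LPLUNC1, a larger relative. Scgb1c1 encodes a secretoglobin of the nasal mucosa.

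The promoters are shown because Bpifa1, Bpifb1 and Scgb3a1 moved with the sorted group and their regulators were measured in the same libraries. RefSeq (GRCm38.p6) gave a window for 4 of the 6 genes, 5 windows in all; each covers the 250 bases before the start site, on the + strand. Capitals mark a match to a forkhead motif (TGTTTNC), an NKX2-1 motif (CAAGTG), a C/EBP motif (TTGCNNAA) or a TATA box (TATAAA), searched on both strands. The windows are chr2:154142630-154142879 for Bpifa1, chr2:154190568-154190817 and chr2:154200130-154200379 for the upstream and downstream starts of Bpifb1, and chr11:49663345-49663594 for Scgb3a1.
Bpifa1: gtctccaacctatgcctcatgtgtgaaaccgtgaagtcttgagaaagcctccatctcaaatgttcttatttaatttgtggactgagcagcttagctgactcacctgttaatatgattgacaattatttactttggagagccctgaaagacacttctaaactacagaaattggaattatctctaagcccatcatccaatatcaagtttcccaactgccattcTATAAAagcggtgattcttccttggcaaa
Bpifb1, upstream start: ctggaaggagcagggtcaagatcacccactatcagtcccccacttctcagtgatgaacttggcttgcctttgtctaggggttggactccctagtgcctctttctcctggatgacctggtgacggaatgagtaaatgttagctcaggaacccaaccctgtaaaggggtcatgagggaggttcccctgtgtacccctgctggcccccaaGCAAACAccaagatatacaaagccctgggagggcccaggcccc
Bpifb1, downstream start: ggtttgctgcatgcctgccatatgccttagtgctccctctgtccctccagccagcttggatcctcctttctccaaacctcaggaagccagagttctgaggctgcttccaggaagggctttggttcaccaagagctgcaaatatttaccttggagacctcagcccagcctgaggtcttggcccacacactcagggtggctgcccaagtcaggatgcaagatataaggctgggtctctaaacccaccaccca
Scgb3a1: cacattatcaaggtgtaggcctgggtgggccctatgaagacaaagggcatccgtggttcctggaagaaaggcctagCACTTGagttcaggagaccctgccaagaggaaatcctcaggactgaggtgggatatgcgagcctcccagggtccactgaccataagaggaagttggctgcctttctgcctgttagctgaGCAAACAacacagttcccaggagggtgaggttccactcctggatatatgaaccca

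The Bpifa1 window held a TATA box 29 bases before the start. A forkhead match in reverse orientation lay 43 bases before the upstream Bpifb1 start and another lay 55 bases before the Scgb3a1 start. The Scgb3a1 window also held a reverse NKX2-1 match 174 bases before the start, and the downstream Bpifb1 window held none of the 4 motifs. A forkhead match 175 bases before the start was found for Scgb1c1. Among 32851 promoter windows of the same length, 17.8% held the forkhead motif, 11.6% the NKX2-1 motif, 9.56% the C/EBP motif and 12.4% TATAAA, so each of these matches is common. Scgb1a1 lies on chromosome 19, Scgb3a2 on chromosome 18, Scgb1c1 on chromosome 7, Scgb3a1 on chromosome 11, and Bpifa1 and Bpifb1 both on chromosome 2.

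Estimated counts totalled 1824619 to 4440072 per library, and 12211 genes passed edgeR's filter on low counts, including 5 of the 6 followed genes. Krt5, the keratin that defines basal cells, lay at 1262 to 2135 CPM (counts scaled to the library total) in BCAM HI and 701 to 1122 in BCAM LO, and at 0 to 2.78 in DIFFERENTIATED, so the labels held for this marker. Bcam itself lay at 324 to 739 CPM in BCAM HI, 224 to 456.7 in BCAM LO and 109 to 252 in batch 1 of DIFFERENTIATED, but at 887, 907 and 457.6 in DIFFERENTIATED 6, 7 and 8. Libraries 6 and 7 of DIFFERENTIATED stood apart from the rest of their group. The 7 thyroid genes, all with counts in every group, summed to 82947, 116791 and 49390 CPM in DIFFERENTIATED 6, 7 and 8, mostly from Tg, the thyroglobulin gene (79239, 112408 and 46826), against 13787 to 25845 in batch 1 of that group. They summed to at most 40.8 in batch 1 of BCAM HI and 9.43 in batch 1 of BCAM LO, and to 79.5 to 1282 and 11.6 to 243 in batch 2 of those groups. The 10 submucosal gland genes summed to 110 to 647 CPM in BCAM HI, 2345 to 13944 in BCAM LO, 55936 to 76724 in batch 1 of DIFFERENTIATED, and 18515, 7100 and 72979 in DIFFERENTIATED 6, 7 and 8, and Prol1 was at 0 in all DIFFERENTIATED libraries. The 3 parathyroid genes summed to 189 to 17781 CPM in batch 1 of DIFFERENTIATED, against at most 11.6 and 2.27 in batch 1 of BCAM HI and BCAM LO. The 9 ionocyte, tuft and neuroendocrine genes summed to 386 to 11505, 4.73 to 12.1 and 9.94 to 71.4 CPM in those libraries. In batch 2 the parathyroid sums were 238, 7.68 and 0.411 in DIFFERENTIATED 6, 7 and 8. They were at most 2.51 in BCAM HI, and 0.882, 267 and 0 in BCAM LO 6, 7 and 8. The sums of the 9 genes were 207, 97.7 and 63.8 in DIFFERENTIATED 6, 7 and 8. They were at most 12.2 in BCAM HI, and 6.18, 200 and 8.07 in BCAM LO 6, 7 and 8. The 8 suprabasal and hillock genes summed to 1199 to 1899 CPM in BCAM HI, 2104 to 3820 in BCAM LO and 1323 to 4474 in DIFFERENTIATED. These sums differed between groups and batches, and not all went with the 6 genes. In BCAM LO the suprabasal and hillock sum was 3005 to 3820 CPM in batch 1 and 2104 to 2668 in batch 2. The 6 genes there summed to 14829 to 36754 and 47160 to 60386. The thyroid sums were highest in DIFFERENTIATED 6 and 7, where the 6 genes were lowest in the group. The part of these sums in the results below was not tested.

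In TPM (a share of the library's transcripts, corrected for length), the 6 genes together made up a minor share of BCAM HI and a large share of DIFFERENTIATED in batch 1. They took 0.829% to 1.08% of the TPM of a BCAM HI library in batch 1 and 2.00% to 2.94% in batch 2. In BCAM LO the shares were 1.59% to 4.08% and 5.44% to 7.26%. In DIFFERENTIATED they were 29.1% to 37.8% in batch 1 and 1.75%, 1.62% and 11.8% in libraries 6, 7 and 8. The order HI, LO, DIFFERENTIATED therefore held without overlap within batch 1, while in batch 2 the 3 BCAM LO libraries lay above DIFFERENTIATED 6 and 7 and below DIFFERENTIATED 8.

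**Figure D1:**
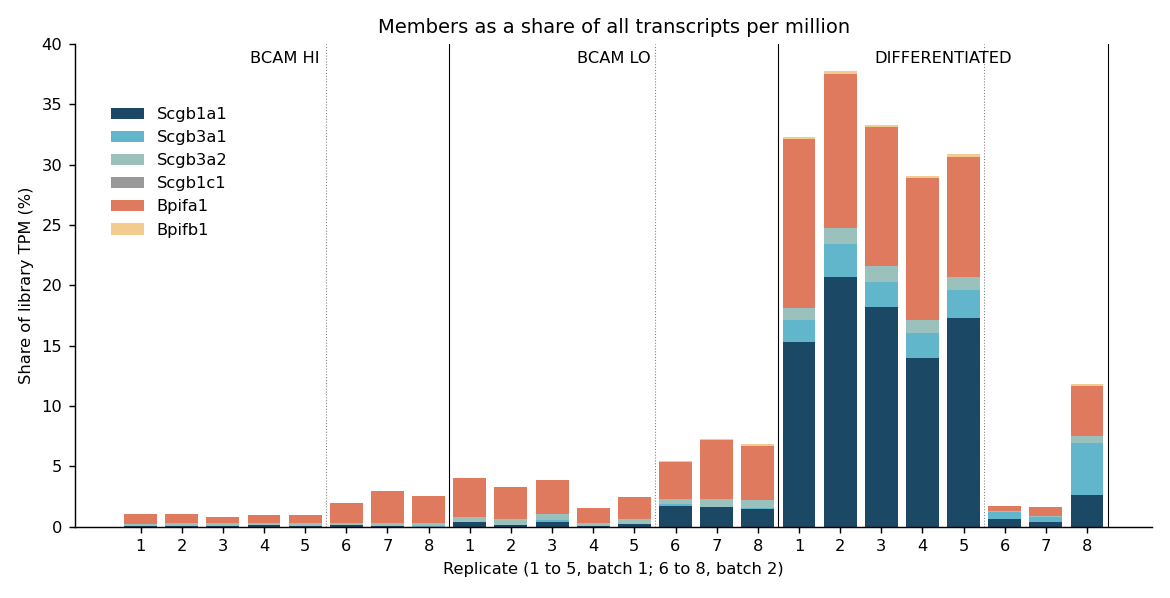
Stacked bars give the share of each library's TPM (percent, linear axis from 0) taken by each of the followed genes, for the 8 libraries of each group. The 5 batch 1 libraries of DIFFERENTIATED reach 29.1% to 37.8%, and the bars of DIFFERENTIATED 6 and 7 stay below 2%.

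Which gene led also differed between the groups. Bpifa1 led in every BCAM HI library, with 64.3% to 77.9% of the 6 genes' TPM in batch 1 and 85.2% to 89.2% in batch 2. Scgb3a2 came next (18.8% to 28.8% in batch 1), and Scgb1a1 took 0.442% to 16.2% over both batches. Batch 1 of BCAM LO had the same leading order, with Bpifa1 at 73.3% to 80.9%. In batch 2 of BCAM LO Scgb1a1 moved ahead of Scgb3a2 and took 21.4% to 32.3%, with Bpifa1 at 56.5% to 66.8%.

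In all 5 batch 1 libraries of DIFFERENTIATED Scgb1a1 was the gene with the highest TPM of all (rank 1) and Bpifa1 was at rank 2. Scgb1a1 then took 47.3% to 55.9% of the 6 genes' TPM, ahead of Bpifa1 (32.4% to 43.5%), Scgb3a1 (5.61% to 7.61%), Scgb3a2 and Bpifb1. These shares of neighbouring genes did not overlap; the TPM values of Scgb1a1 (139817 to 207042) and Bpifa1 (100031 to 140523) overlapped at the edge. In DIFFERENTIATED 6, 7 and 8 the leading genes were Scgb1a1, Bpifa1 and Scgb3a1 respectively, so no single order held there. Bpifa1 ranked 2 to 7 among all genes in BCAM LO and 4 to 19 in BCAM HI.

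Scgb1a1, the club cell marker, was low in BCAM HI and rose through BCAM LO to DIFFERENTIATED. Its CPM in BCAM HI 1 to 8 were 71.1, 139.8, 95.9, 522, 115, 398, 144 and 32.3, with a median of 127. In BCAM LO 1 to 8 they were 1197, 477, 1870, 236, 918, 8557, 6361 and 4777. In DIFFERENTIATED 1 to 8 they were 75461, 119720, 94759, 67626, 92412, 4620, 1747 and 9772. The 3 batch 2 libraries were the highest of BCAM LO and the lowest of DIFFERENTIATED, so these groups overlapped in batch 2 and not in batch 1. BCAM HI and DIFFERENTIATED did not overlap.

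Scgb3a1, a further airway secretoglobin, kept the BCAM subsets and DIFFERENTIATED apart in every library. Its CPM were 22.3, 24.4, 11.5, 20.9, 15.4, 16.6, 6.72 and 45.7 in BCAM HI 1 to 8, and 39.9, 57.2, 441, 18.1, 17.1, 517, 158 and 379 in BCAM LO 1 to 8. In DIFFERENTIATED they were 9474, 16689, 11549, 10657, 13422, 3745, 1796 and 17163. The lowest DIFFERENTIATED library was above the highest BCAM LO library, while BCAM HI and BCAM LO overlapped. Within batch 1 they overlapped because BCAM LO 4 and 5 lay below BCAM HI 1, 2 and 4, and within batch 2 they did not overlap.

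Scgb3a2 had the smallest fold change of the 5 tested genes in each comparison over both batches. Its CPM were 636, 828.9, 877, 696, 946, 655, 839 and 1077 in BCAM HI, and 1498, 1722, 2544, 1165, 1549, 2506, 3044 and 2394 in BCAM LO. In DIFFERENTIATED they were 6066, 9479.5, 8379.9, 6255, 6951, 613, 394 and 2477. BCAM HI and BCAM LO did not overlap, and DIFFERENTIATED 6 and 7 were below every BCAM HI library while batch 1 of DIFFERENTIATED was above every BCAM LO library.

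Bpifa1, the SPLUNC1 gene, was abundant in all groups. Its CPM were 6418, 7389, 4859, 5442, 6645, 13926, 19582 and 17124 in BCAM HI, and 29429, 23880.3, 31843, 13405, 17743, 38225, 49341 and 37742 in BCAM LO. In DIFFERENTIATED they were 210205, 228558, 184014, 171726, 164801, 6909, 7157 and 42395. The BCAM groups did not overlap within a batch, and DIFFERENTIATED 6 and 7 lay at the level of BCAM HI batch 1.

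Bpifb1, the LPLUNC1 gene, was low in BCAM HI. Its CPM were 8.54, 5.78, 8.08, 1.76, 6.24, 45.2, 42.8 and 27.9 there. In BCAM LO they were 14.4, 10.6, 55.8, 5.61, 5.10, 1489.98, 1481 and 1868. In DIFFERENTIATED they were 3695, 7790.3, 4146, 3559, 5505, 883, 290.1 and 3757. The 3 batch 2 libraries of BCAM LO were far above its 5 batch 1 libraries and overlapped DIFFERENTIATED.

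Scgb1c1 was barely detected and was not tested. It had 15 counts over BCAM HI, 6 over BCAM LO and 13 over DIFFERENTIATED, in 5, 2 and 5 libraries. Over each group this came to 0.527 CPM (exact 95% Poisson interval 0.295 to 0.869), 0.218 (0.0798 to 0.474) and 0.843 (0.449 to 1.44), intervals that cover counting error only. No test between the groups was made.

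**Figure D2:**
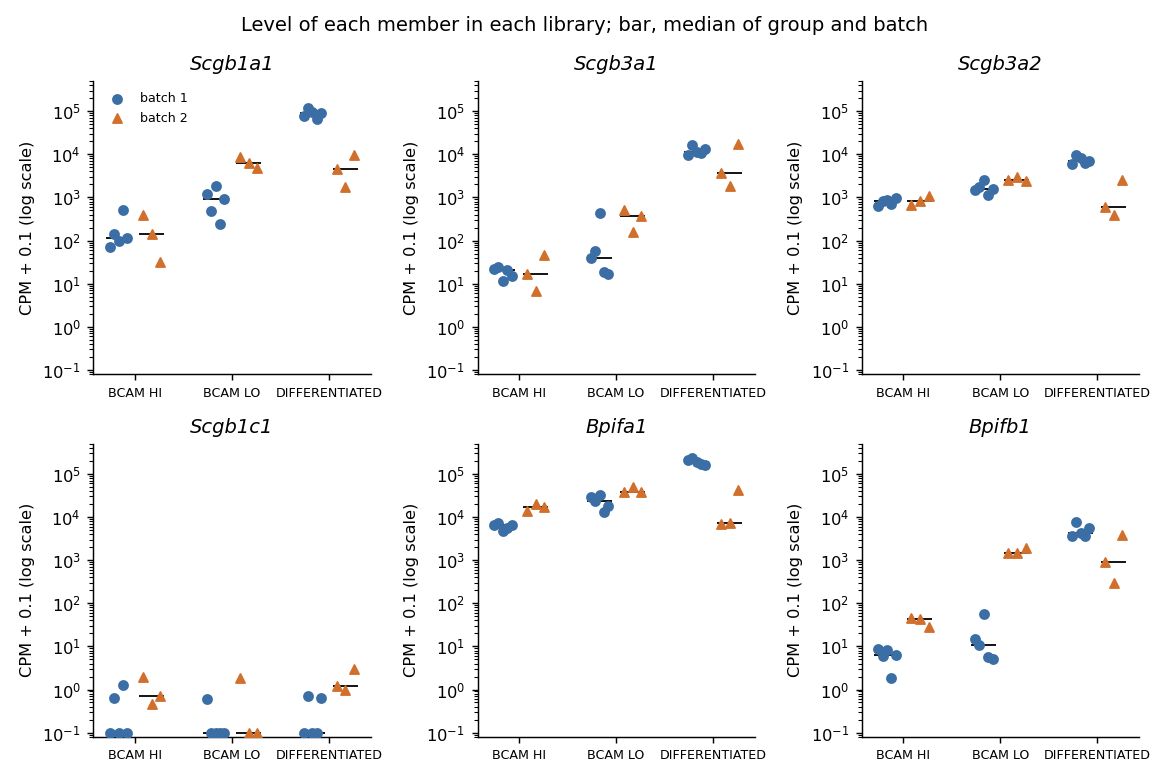
Each point is 1 library, at its CPM plus 0.1 on a log axis, in the 3 groups, with batch 1 and batch 2 marked by colour and shape. For Scgb3a1 the DIFFERENTIATED points all lie above both BCAM groups, while for Scgb1a1, Scgb3a2 and Bpifa1 all 3 batch 2 points of DIFFERENTIATED lie below its batch 1 points.

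BCAM HI against BCAM LO asks how the 2 subsets differ. Scgb1a1, Scgb3a1 and Bpifb1 were lower in BCAM HI, and Scgb3a2 and Bpifa1 did not pass the test. Thus 3 of the 5 tested genes were called lower by edgeR's quasi-likelihood test at a Benjamini-Hochberg adjusted p under 0.05, where 7.02% of all tested genes were called in either direction and 4.59% lower. Scgb1a1 was 14.6-fold lower (log2 fold change -3.86, SE 0.99, edgeR adjusted p = 0.0194). Scgb3a1 was 9.22-fold lower (-3.20, SE 0.72, edgeR adjusted p = 0.0083). Bpifb1 was 14.1-fold lower (-3.82, SE 1.15, edgeR adjusted p = 0.0492). The values of Scgb3a2 and Bpifa1 were -1.36 (SE 0.45, edgeR adjusted p = 0.0769) and -1.59 (SE 0.59, edgeR adjusted p = 0.117). The median log2 fold change of the 5 genes was -3.20, and that of all tested genes 8.79e-05. In bulk RNA, fewer cells of a type and less RNA per cell cannot be told apart, here and in every comparison below.

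The calls were sensitive to the fit. Of 16 alternative fits, Scgb3a1 lost its call in 7, Bpifb1 in 7 and Scgb1a1 in 4, and limma voom called none of the 5 genes (Scgb1a1 -3.47, adjusted p = 0.0588). Scgb3a2 and Bpifa1 each gained a call in 5 of the 16. The 16 include each batch fitted alone and the comparisons within each batch, which compare fewer libraries. Without BCAM LO 3, Scgb3a1 was still called, at -2.55. The Bpifb1 call was lost in 18 of the 24 fits that left out 1 library (edgeR adjusted p 0.032 to 0.108) and with the replicate number as a block (-3.79, edgeR adjusted p = 0.116), which left 2 of the 5 genes called. With DIFFERENTIATED 6 and 7 both left out of the shared fit, all 5 genes were called, with log2 fold changes of -3.49, -3.11, -1.31, -1.65 and -3.42 for Scgb1a1, Scgb3a1, Scgb3a2, Bpifa1 and Bpifb1. These 2 libraries are in neither compared group; they enter the fit through the spread and the batch term that all groups share. Over both batches, 7 of 10 ciliated genes were also lower in BCAM HI (median -2.58). Within batch 1, 0 of these 10 were called (median -0.43), where 1 of the 5 followed genes was. Within batch 2, 10 of 10 were lower (median -5.36), where 3 of the 5 followed genes were called. Their part in the result was not tested.

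Within batch 1, Bpifa1 alone was called between BCAM HI and BCAM LO (-1.92, edgeR adjusted p = 0.0060), beside 3.17% of all genes called lower. Scgb1a1 gave -2.32 (edgeR adjusted p = 0.0610), Scgb3a1 -2.60 (0.0888 by the same test), Scgb3a2 -1.09 (0.0822) and Bpifb1 -1.58 (0.221). Without BCAM LO 3, Scgb3a1 and Bpifb1 gave -0.81 and -0.54 (edgeR adjusted p = 0.590 and 0.749). Within batch 2, Scgb1a1 (-5.10, edgeR adjusted p = 0.00398), Scgb3a2 (-1.63, 0.0413) and Bpifb1 (-5.38, 0.00131) were called, beside 4.48% of all genes called lower. Scgb3a1 (-3.92, edgeR adjusted p = 0.0510) and Bpifa1 (-1.31, 0.140) were not. The Scgb3a2 call was lost in 7 of the 24 fits that left out 1 library (edgeR adjusted p up to 0.154) and with no filter (-1.58, 0.0876). All 5 genes were lower in BCAM HI in both batches by the sign of the fit. The difference between the batches was not called for any of the 5 genes, beside 1.06% of all genes. The smallest edgeR adjusted p was 0.126, for Bpifb1 (-3.81). Below 0.05 without adjustment, edgeR gave 2 of 5, Scgb1a1 and Bpifb1, beside 1432 of all 12211 tested genes. No other tool was run on this contrast.

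**Figure D3:**
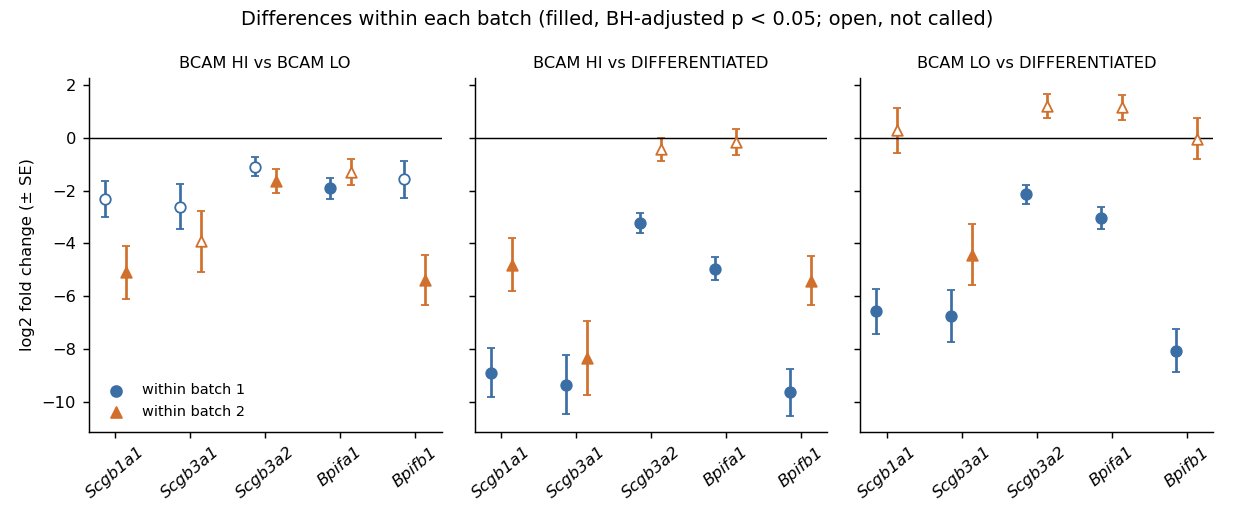
Log2 fold changes with their standard errors for each tested gene and comparison, fitted within batch 1 and within batch 2. Filled symbols passed an adjusted p of 0.05; the batch 1 values against DIFFERENTIATED are all filled and negative, and 4 of the 5 batch 2 values of BCAM LO against DIFFERENTIATED are open and near or above 0.

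BCAM HI against DIFFERENTIATED asks how the BCAM HI subset differs from the differentiated cells. All 5 tested genes were lower in BCAM HI, beside 41.3% of all genes called in either direction and 22.0% called lower. Bpifb1 was 626-fold lower (-9.29, SE 1.31, edgeR adjusted p = 6.56e-06), Scgb3a1 541-fold lower (-9.08, SE 0.91, 6.29e-08) and Scgb1a1 330.2-fold lower (-8.37, SE 1.16, 5.54e-06). The smallest changes were those of the genes that BCAM HI expressed at high levels: Bpifa1 was 13.4-fold lower (-3.75, SE 0.71, edgeR adjusted p = 0.000212) and Scgb3a2 5.65-fold lower (-2.50, SE 0.49, 0.000295). The median over the 5 was -8.37, against 0.02 over all tested genes.

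The fold change was higher (less negative) in batch 2 for 4 of these 5 genes, beside 5.41% of all genes. Within batch 1 the log2 fold changes were -8.90, -9.35, -3.22, -4.96 and -9.65 for Scgb1a1, Scgb3a1, Scgb3a2, Bpifa1 and Bpifb1, all called (18.4% of all genes were called lower). Within batch 2 they were -4.81, -8.35, -0.44, -0.16 and -5.41, and Scgb3a2 (edgeR adjusted p = 0.507) and Bpifa1 (0.845) were not called (16.9% of all genes were called lower). The change of the fold between batches was 4.81 (SE 0.65, edgeR adjusted p = 7.45e-05) for Bpifa1, 4.23 (SE 1.08, 0.0176) for Bpifb1, 4.09 (SE 1.13, 0.0274) for Scgb1a1 and 2.78 (SE 0.58, 0.00395) for Scgb3a2. The Scgb1a1 value was 2.96 and not called without BCAM HI 6 (edgeR adjusted p = 0.119). For Scgb3a1 it was 1.00 (edgeR adjusted p = 0.743), with both batches called.

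For Scgb1a1, Scgb3a2 and Bpifa1, DIFFERENTIATED 8 also lay below every batch 1 library of its group (9772, 2477 and 42395 CPM). With DIFFERENTIATED 6 and 7 left out, the fit over both batches gave -8.98, -9.50, -3.05, -4.47 and -10.11 for Scgb1a1, Scgb3a1, Scgb3a2, Bpifa1 and Bpifb1, and all 5 were called. Without DIFFERENTIATED 8, Scgb3a2 and Bpifa1 reversed within batch 2, to 0.77 (edgeR adjusted p = 0.0406) and 1.27 (0.00126), higher in BCAM HI. All 10 ciliated genes were lower in BCAM HI than in DIFFERENTIATED (median -4.50), and their part in the result was not tested.

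BCAM LO against DIFFERENTIATED asks the same of the BCAM LO subset. Scgb1a1, Scgb3a1, Bpifa1 and Bpifb1 were lower in BCAM LO and Scgb3a2 did not pass, which is 4 of 5 beside 33.5% of all genes in either direction and 17.1% lower. Scgb3a1 was 58.7-fold lower (-5.87, SE 0.80, edgeR adjusted p = 7.52e-06), Bpifb1 44.4-fold (-5.47, SE 1.33, 0.00312), Scgb1a1 22.7-fold (-4.50, SE 1.14, 0.00438) and Bpifa1 4.46-fold (-2.16, SE 0.66, 0.0148). Scgb3a2 gave -1.14 (SE 0.49, edgeR adjusted p = 0.0777). The median over the 5 was -4.50, against 0.02 over all tested genes. The call of Bpifa1 was lost with only the 2 groups in the fit (-1.65, edgeR adjusted p = 0.126), and that of Bpifb1 without the batch term (-2.59, 0.0852).

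These values join batches that differed. Within batch 1 the log2 fold changes were -6.58, -6.75, -2.13, -3.04 and -8.07 for Scgb1a1, Scgb3a1, Scgb3a2, Bpifa1 and Bpifb1, all called (16.9% of all genes were called lower). Within batch 2 only Scgb3a1 was called (-4.43, edgeR adjusted p = 0.00879), beside 9.79% of all genes called lower, and the others gave 0.29 (0.870), 1.19 (0.0722), 1.15 (0.109) and -0.03 (0.987) for Scgb1a1, Scgb3a2, Bpifa1 and Bpifb1. The fold change was higher in batch 2 for 4 of 5 genes, beside 6.81% of all genes. It was 8.04 (SE 1.14, edgeR adjusted p = 0.000113) for Bpifb1, 6.87 (SE 1.21, 0.000841) for Scgb1a1, 4.19 (SE 0.64, 0.000211) for Bpifa1 and 3.32 (SE 0.58, 0.000795) for Scgb3a2. Scgb3a1 gave 2.32 (edgeR adjusted p = 0.293). With DIFFERENTIATED 6 and 7 left out of the fit over both batches, all 5 genes were called, at -5.49, -6.39, -1.74, -2.81 and -6.69 in the same order as for batch 1. Without DIFFERENTIATED 8, Scgb3a2 and Bpifa1 were called higher in BCAM LO within batch 2 (2.40 and 2.57, edgeR adjusted p = 2.23e-06 and 8.89e-07), and Scgb3a1 gave -2.98 (0.0515). Of the 10 ciliated genes, 9 were lower in BCAM LO within batch 1 and 0 were called within batch 2, and their part in the result was not tested.

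Each group's own change from batch 1 to batch 2 was read from the same fit. In DIFFERENTIATED, Scgb1a1 (-4.06, edgeR adjusted p = 0.00385), Bpifa1 (-3.35, 9.46e-05) and Scgb3a2 (-2.68, 0.000281) fell, which is 3 of 5 beside 10.2% of all genes called lower. Scgb3a1 (-0.71, edgeR adjusted p = 0.642) and Bpifb1 (-1.59, 0.140) were not called. In BCAM LO, Bpifb1 (6.45, edgeR adjusted p = 2.01e-05) and Scgb1a1 (2.80, 0.0204) rose, 2 of 5 beside 6.48% of all genes called higher; the Scgb1a1 call was lost without BCAM LO 6 (2.57, 0.0817). In BCAM HI, Bpifb1 (2.65, edgeR adjusted p = 0.0423) and Bpifa1 (1.46, 0.0398) rose, 2 of 5 beside 4.93% of all genes called higher; neither was called when any 1 of the 8 BCAM HI libraries was left out. Thus Bpifb1 gave positive values in both BCAM groups and Scgb1a1, Scgb3a2 and Bpifa1 fell in DIFFERENTIATED. In BCAM LO, Foxj1, the regulator of ciliated cells, lay at 41.9 to 61.7 CPM in batch 2 against 0.473 to 4.43 in batch 1, and the 10 ciliated genes summed to 450.4 to 753 against 337 to 522. Of these 10, 9 were called higher in batch 2 of BCAM LO, 4 in batch 2 of DIFFERENTIATED and 0 in batch 2 of BCAM HI; their part in the result was not tested.

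The balance between the genes shifted too. The TPM ratio of Scgb3a1 to Scgb1a1 was 0.114 to 0.148 in batch 1 of DIFFERENTIATED, and 0.778, 0.990 and 1.68 in DIFFERENTIATED 6, 7 and 8. In BCAM LO it was 0.0177 to 0.226 in batch 1 and 0.0237 to 0.0756 in batch 2. So the 3 batch 2 libraries of DIFFERENTIATED held nearly as much or more Scgb3a1 as Scgb1a1 RNA per length, outside the range of every BCAM LO library. In BCAM HI the ratio was 0.0382 to 0.290 in batch 1 and 0.0392, 0.0450 and 1.33 in BCAM HI 6, 7 and 8, where BCAM HI 8 stood apart.

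**Figure D4:**
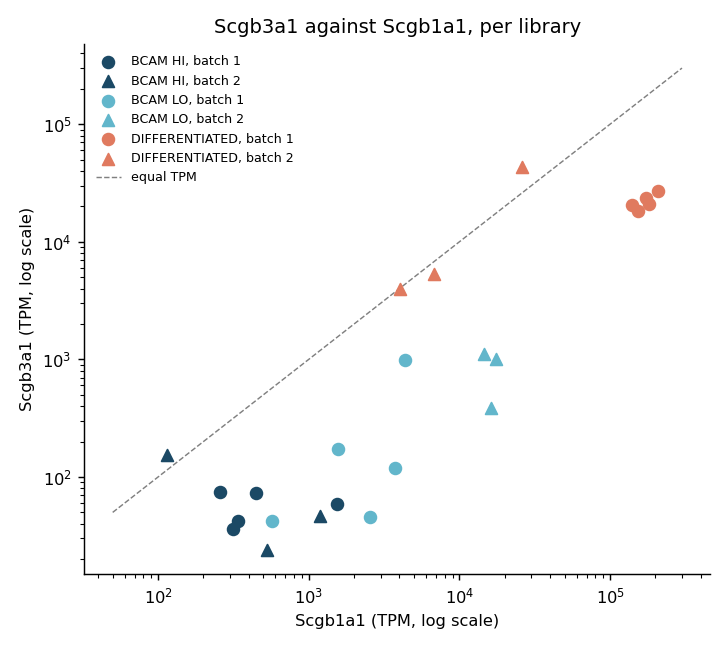
Scgb3a1 against Scgb1a1 in TPM, both on log axes, 1 point per library, with a dashed line of equal TPM. The batch 1 DIFFERENTIATED points lie together at a ratio of 0.114 to 0.148, and DIFFERENTIATED 6, 7 and 8 lie near or above the line.

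Bpifa1 exceeded Scgb1a1 in BCAM HI by 3.97 to 195 times in TPM, in batch 1 of BCAM LO by 6.60 to 22.4 times and in batch 2 of BCAM LO by 1.75 to 3.07 times. In batch 1 of DIFFERENTIATED the ratio was 0.579 to 0.919, and in DIFFERENTIATED 6, 7 and 8 it was 0.636, 1.79 and 1.59. Bpifb1, the larger relative on the same chromosome, reached only 0.0205% to 0.102% of the Bpifa1 TPM in batch 1 of BCAM HI and 0.0181% to 0.109% in batch 1 of BCAM LO. It reached 1.88% to 3.10% in batch 2 of BCAM LO, 1.09% to 2.10% in batch 1 of DIFFERENTIATED and 8.33%, 2.39% and 5.29% in DIFFERENTIATED 6, 7 and 8.

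Transcripts of Bpifb1 begin at the upstream or the downstream start shown above. In libraries with at least 500 estimated counts of the gene, transcripts from the upstream start took 52.1% to 80.3% in batch 2 of BCAM LO, 39.0% to 71.3% in batch 1 of DIFFERENTIATED and 19.3%, 49.9% and 21.6% in DIFFERENTIATED 6, 7 and 8. The transcripts share most of their sequence, so the split between them is uncertain.

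How the genes varied together was read from libraries of 1 group after removing each batch's mean. Over 20 pairs of genes in BCAM LO and DIFFERENTIATED (n = 8 libraries each, log2 CPM), no correlation passed after adjustment in the exact permutation test within batch. At an unadjusted p under 0.05 the exact permutation test gave 8 pairs by Pearson and 4 by Spearman correlation. The closest pair was Scgb3a1 and Bpifb1 in DIFFERENTIATED, with r = 0.987 (exact permutation p = 0.00278, adjusted 0.0556) and rho = 0.833 (exact permutation p = 0.0319). Without the 2 libraries farthest from the median, r was 0.914, which was not tested. With batch means left in, r for this pair went from 0.973 to 0.570 when the 2 farthest libraries were left out. In BCAM LO, with batch means removed, it went from 0.932 to 0.642. With TPM in place of CPM, the pair in DIFFERENTIATED was the 1 that passed (r = 0.978, exact permutation adjusted p = 0.0278).

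Over all 24 libraries, the genes with the most similar log2 CPM profile to each were listed among 9037 genes, as a description that shares group, batch and depth. For Scgb1a1 they were Sftpd, which encodes surfactant protein D (r = 0.966), Clic6 (0.965) and Faah (0.955). Scgb3a1 was closest to Cp, which encodes ceruloplasmin (0.959), Tff2 (0.956) and S100a1 (0.950), and Bpifb1 to the mucin gene Muc5b (0.952), the antibacterial lectin gene Reg3g (0.950) and Tent5c (0.945). Scgb3a2 and Bpifa1 had the same first gene, Tst, at 0.971 and 0.969. The next were Alas1 (0.963) and Pon1 (0.958) for Scgb3a2, and Idh1 (0.962) and Itprid1 (0.953) for Bpifa1. With the mean of each group and batch removed, r for these pairs ran from 0.451 (Scgb1a1 with Faah) to 0.902 (Bpifa1 with Tst).

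Most other genes of both families had few or no counts. Of 30 listed, 8 had no count in any library, 16 had 1 to 100 counts over the 24 libraries and 6 had more. Only Lbp and Pltp, which encode lipid-transfer proteins of the BPI fold, were tested. Over both batches their values had the opposite sign to those of the tested followed genes. Both were higher in BCAM HI than in DIFFERENTIATED (0.64 and 1.57, edgeR adjusted p = 0.00359 and 1.4e-05) and in BCAM LO than in DIFFERENTIATED (0.47 and 0.83, 0.0368 and 0.0119). Between BCAM HI and BCAM LO they gave 0.17 and 0.74 and were not called. A single library held most counts of Bpifb9a (374 of 429) and Bpifb5 (434 of 662), both in DIFFERENTIATED 8, and of Bpifb2 (101 of 179), in DIFFERENTIATED 4.

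Other secretory products were read from a list of 14 airway secretory cell genes, all tested. Of these, 4 were lower in BCAM HI than in BCAM LO, beside 4.59% of all genes, and none was higher: Muc5b, which encodes the main gel-forming mucin of the resting airway (-4.21, edgeR adjusted p = 0.0238), Agr2, needed for mucin folding (-2.39, 0.00261), Reg3g (-2.02, 0.0225) and Gabrp, a GABA receptor subunit (-1.33, 0.0493). The list's median was -1.61. Against DIFFERENTIATED, 11 were lower in BCAM HI (median -4.20, beside 22.0% of all genes) and 9 in BCAM LO (median -1.88, beside 17.1%), and none was higher in either. In BCAM HI the largest were the trefoil factor gene Tff2 (-9.63, edgeR adjusted p = 1.26e-07), Muc5b (-9.54, 3.13e-06), Gp2 (-8.23, 6.78e-06) and Pigr, the receptor that carries immunoglobulin A across the epithelium (-6.18, 1.03e-05). In BCAM LO they were Tff2 (-7.75, edgeR adjusted p = 9.21e-07), Muc5b (-5.33, 0.00115), Hp, which encodes haptoglobin (-4.14, 4.41e-05), and Gp2 (-4.07, 0.000403).

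Their batches differed as well. The difference between batches was called for 8 of the 14 genes in BCAM HI against DIFFERENTIATED and 12 in BCAM LO against DIFFERENTIATED, all positive. Of all genes, 5.41% and 6.81% were called positive in these tests. Within batch 2, 4 of the 14 were higher and 2 lower in BCAM LO than in DIFFERENTIATED, beside 9.79% of all genes called lower. The share of all genes called higher is not given here, so these counts are a description only. Reg3g lay at 235 to 833 CPM in batch 1 of BCAM LO and 9776 to 11093 in batch 2, and at 6333 to 8510 and 2468 to 18403 in DIFFERENTIATED. Muc5b lay at 0.255 to 74.3 and 412 to 725 in BCAM LO, and at 2759 to 3868 in batch 1 of DIFFERENTIATED. Both therefore shared the rise of Bpifb1 in batch 2 of BCAM LO (4.05 for Reg3g and 4.71 for Muc5b, edgeR adjusted p = 1.29e-05 and 0.0054).

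Cyp2f2, a cytochrome of club cells, was called in no comparison over both batches, and the batches differed. In batch 1 its CPM were 20841 to 26401 in BCAM HI, 18160 to 27004 in BCAM LO and 25986 to 38258 in DIFFERENTIATED. In batch 2 they were 10718 to 13535 in BCAM HI and 13514 to 15822 in BCAM LO. DIFFERENTIATED 6, 7 and 8 lay at 2113, 1400 and 8605, below every other library, as part of a fall from batch 1 that Scgb1a1, Scgb3a2 and Bpifa1 also had. The 3 comparisons gave -0.09, 0.15 and 0.24 for BCAM HI against BCAM LO, BCAM HI against DIFFERENTIATED and BCAM LO against DIFFERENTIATED, none called (edgeR adjusted p = 0.924, 0.784 and 0.658). Within batch 2 it was higher in BCAM HI (1.60, edgeR adjusted p = 0.00462) and in BCAM LO (1.85, 0.00247) than in DIFFERENTIATED. DIFFERENTIATED 6 and 7 were thus the lowest libraries for Cyp2f2 as for Scgb3a2.

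Known regulators of secretory cells split. Of 22 listed, 19 were tested; 4 were lower and none higher in BCAM HI than in BCAM LO: Foxa3, the receptor gene Notch3 (-1.62, edgeR adjusted p = 0.00184), Xbp1, a factor that expands the secretory machinery (-0.81, 0.0105), and Elf3, an epithelial ETS factor (-0.41, 0.0461). Foxa3, a goblet cell forkhead factor, had no count in batch 1 of BCAM HI and at most 0.354 CPM in batch 2. It lay at 0 to 1.26 in batch 1 of BCAM LO, 4.54 to 21.2 in batch 2 and 1.69 to 13.1 in DIFFERENTIATED. Against DIFFERENTIATED, 6 regulators were higher and 7 lower in BCAM HI, and 6 higher and 4 lower in BCAM LO. So 4, 13 and 10 of 19 were called, beside 7.02%, 41.3% and 33.5% of all genes. The list's medians were -0.33, 0.03 and 0.26 in the 3 comparisons over both batches. Within batch 1, 3 were higher and 8 lower in BCAM HI than in DIFFERENTIATED, and 7 and 5 in BCAM LO. Within batch 2 the counts were 7 and 7, and 7 and 2. Of all genes, 18.4% and 16.9% were called lower within batch 1, and 16.9% and 9.79% within batch 2. The batch difference was called positive for 6 regulators and negative for 1 in BCAM HI, and for 8 and 3 in BCAM LO. Of all genes, 5.41% and 6.81% were called positive.

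Spdef, Xbp1 and Creb3l1 were among the regulators called lower against DIFFERENTIATED in both BCAM groups. Spdef, which drives goblet cell differentiation, gave -2.42 (edgeR adjusted p = 4.45e-05) in BCAM HI and -1.36 (0.0129) in BCAM LO against DIFFERENTIATED. Xbp1 gave -2.26 (edgeR adjusted p = 8.47e-10) and -1.45 (1.74e-06), and Creb3l1, a factor of the secretory pathway, -3.79 (8.98e-06) and -2.96 (0.000187). In BCAM HI alone, Elf5 (-2.33, edgeR adjusted p = 0.00022) and Notch3 (-2.17, 3.19e-06) were also called lower; in BCAM LO neither was called, and the difference between the subsets was called for Notch3 (above) and not for Elf5 (-1.33, 0.0911). Spdef lay at 3.03 to 9.70 CPM in batch 1 of BCAM LO and at 37.1 to 44.6 in batch 2, the range of DIFFERENTIATED (20.9 to 65.8), and its batch difference in BCAM HI against BCAM LO was called (-2.44, edgeR adjusted p = 0.0237).

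Among the regulators called higher was the forkhead factor Foxa1. It was higher in BCAM HI (0.99, edgeR adjusted p = 0.000155) and BCAM LO (1.27, 8.75e-06) than in DIFFERENTIATED, at 70.4 ± 12.7, 87.2 ± 16.2 and 37.1 ± 15.1 CPM (SD, n = 8). These means pool both batches. In BCAM HI Foxa1 lay at 47.98 to 85.7 CPM in batch 1 and 71.5 to 83.8 in batch 2. In BCAM LO it lay at 79.5 to 121 and 69.3 to 82.7. In batch 1 of DIFFERENTIATED it reached at most 52.2. DIFFERENTIATED 6, 7 and 8 lay lower, at 11.9, 17.5 and 32.5. BCAM HI and DIFFERENTIATED overlapped within batch 1 and not within batch 2, and BCAM LO and DIFFERENTIATED overlapped in neither. Notch1, the receptor expressed in basal cells (1.67, edgeR adjusted p = 1.29e-07), the epithelial factor Klf5 (1.22, 0.00109) and Cebpa, a lung differentiation factor (0.66, 0.0137), were also higher in BCAM LO than in DIFFERENTIATED. Klf5 lay at 227 to 406 CPM in BCAM LO, at 141 to 223 in batch 1 of DIFFERENTIATED and at 58.2, 35.8 and 102.9 in DIFFERENTIATED 6, 7 and 8. Foxa2 was low, at 0 to 2.99 CPM.

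Nkx2-1, the lung and thyroid homeodomain factor, was called in none of the 3 comparisons (-0.55, -0.45 and 0.10, edgeR adjusted p = 0.327, 0.283 and 0.851). Its CPM were 8.04 to 21.1 in batch 1 of DIFFERENTIATED and 49.1, 45.6 and 27.2 in DIFFERENTIATED 6, 7 and 8. Against BCAM LO this gave opposite calls, 1.11 within batch 1 (edgeR adjusted p = 0.00162) and -1.37 within batch 2 (0.00325), for BCAM LO against DIFFERENTIATED. DIFFERENTIATED 6 and 7 also had the highest thyroid sums and the lowest Scgb3a2, and the part of thyroid RNA in this was not tested.

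**Figure D5:**
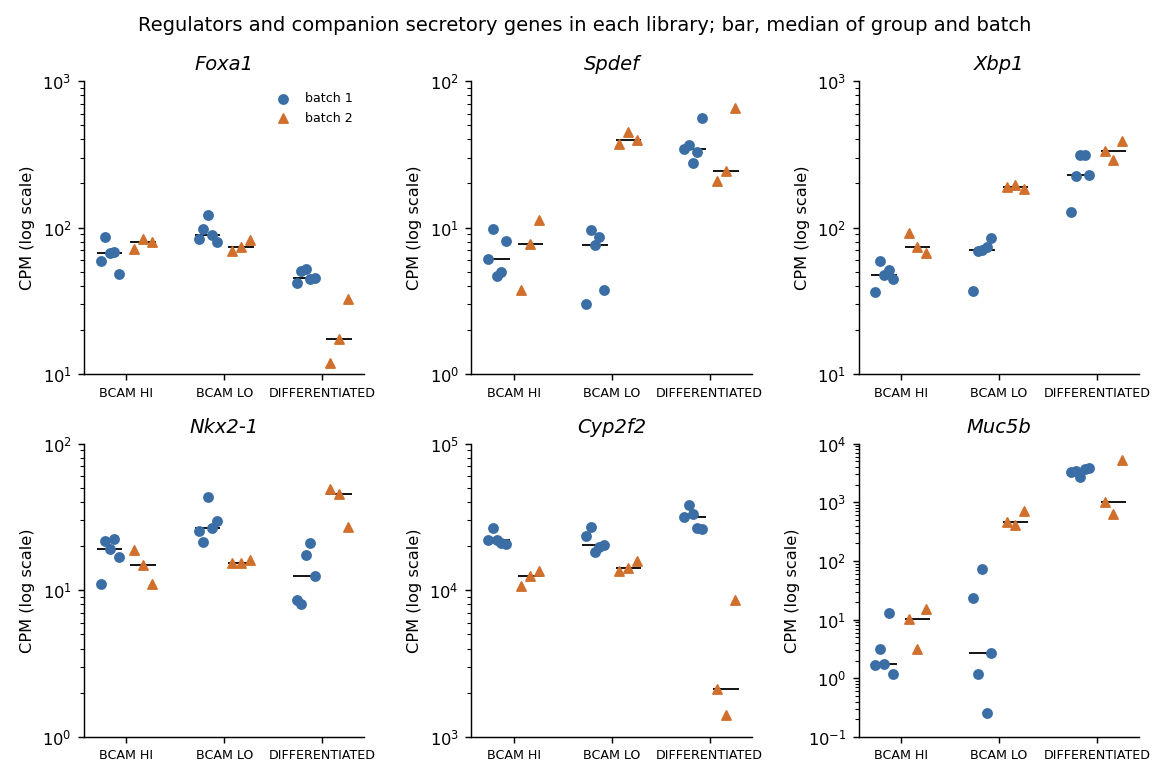
CPM on log axes of Foxa1, Spdef, Xbp1, Nkx2-1, Cyp2f2 and Muc5b, 1 point per library, with batch 1 as circles, batch 2 as triangles and a bar at the median of each group and batch. Batch 2 of BCAM LO lies at the level of DIFFERENTIATED for Spdef (37.1 to 44.6 CPM), while Cyp2f2 is lowest in DIFFERENTIATED 6 and 7.

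Surfactant genes were checked because Sftpd had the profile closest to Scgb1a1. The 8 alveolar type 2 genes summed to 76.5 to 826 CPM in BCAM HI, 109 to 393 in BCAM LO, 1245 to 1913 in batch 1 of DIFFERENTIATED and 7089, 829.7 and 846 in DIFFERENTIATED 6, 7 and 8. Sftpc, the defining gene of that cell type, reached 4135 CPM in DIFFERENTIATED 6. This sum was thus highest in a library with low secretoglobin values, and its part in the results was not tested.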

How the data were processed

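Each deposited table gives, per the file headers, each transcript's length, effective length, estimated count and TPM. The submitters' processing notes name Picard, kallisto 46.1 and GRCm39; the sources used here do not give options or annotation. The deposited TPM values are the authors' length-corrected values, without further scaling. The 117497 transcripts were matched by identifier to GENCODE M21 (116374 matched; the rest held 0.317% to 0.594% of counts and were left out), and the authors' estimated counts were summed per gene and rounded. Genes sharing sequence have uncertain counts. Differences were tested with edgeR 4.0.16 (R 4.3.3; TMM factors, default filter, robust quasi-likelihood fit, group means with batch as a term, Benjamini-Hochberg adjusted p under 0.05); differences between batches came from an edgeR fit giving each group its own mean in each batch. CPM are relative to TMM-scaled totals. The script was tested on simulated data. Alternatives used DESeq2 1.42.0 and limma 3.58.1. Correlations used SciPy 1.17.1. Replicate numbers are nested in batch, and the labels do not say that they mark a shared mouse. On deviations from group means, same-numbered libraries correlated above 0.1 in 18 of 24 pairs, including all 8 of BCAM HI and BCAM LO (0.121 to 0.290), and in 7 of 24 once batch means were also removed; 13, 13 and 10 of 16 libraries in the 3 comparisons correlated best with their own number. A fit with the number as a block was an alternative for the 3 comparisons over both batches only. The main fit, the tests within a batch and the tests of differences between batches did not use the number.

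The genes, lists and tests were chosen with earlier results of these data known. Named beside the 6 genes were at most 6 called genes per list and comparison with the largest change, Foxa1, Foxa2, Nkx2-1, Spdef, Cebpa and Cyp2f2, and the 3 genes most similar to each followed gene with a mean of at least 10 CPM; Bcam, Bpifb2, Bpifb5 and Bpifb9a were added after their values were seen. Within-batch comparisons, changes between batches and leaving out DIFFERENTIATED 6 and 7 were added after seeing the data.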

Additional observations from a re-analysis of the deposited data

Results flagged for a closer look

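In 15 sets of 8 libraries (5 tested genes in 3 groups), 1 library stood apart by the gap to its neighbour divided by the range (limit 0.526 for 8 values): Scgb3a1 in BCAM HI 8, at 45.7 CPM, where the others of its group lay at 6.72 to 24.4. Such a check marks about 1 in 20 groups by chance.

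Of 15 edgeR tests of whether a comparison differed between the batches, 8 passed, all against DIFFERENTIATED. For BCAM HI against DIFFERENTIATED the log2 fold change was higher in batch 2 by 4.09 for Scgb1a1, 2.78 for Scgb3a2, 4.81 for Bpifa1 and 4.23 for Bpifb1. For BCAM LO against DIFFERENTIATED it was higher by 6.87 for Scgb1a1, 3.32 for Scgb3a2, 4.19 for Bpifa1 and 8.04 for Bpifb1. These comparisons share the DIFFERENTIATED libraries and are not independent of each other.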

How the results depend on the processing

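Of 2160 values of single genes under alternatives, 2014 kept their direction and side of the threshold, 88 lost a call, 38 gained one and 20 changed sign. The 3 genes called between BCAM HI and BCAM LO became 5 with only the 2 groups in the fit, with the DESeq2 Wald test, or without DIFFERENTIATED 6 and 7; 1 with limma on log2(TPM + 0.1) or log2(TPM + 1), in batch 2 alone, and within batch 1; and 0 with limma voom. The 5 against DIFFERENTIATED in BCAM HI became 3 in batch 2 alone and within batch 2, and the 4 in BCAM LO became 0 and 1. There Scgb1a1, Scgb3a2 and Bpifa1 changed sign: 0.29, 1.199 and 1.16 in batch 2 alone, and 0.29, 1.19 and 1.15 within batch 2. The correlation of log2(TPM + 0.1) gave 1 pair in place of 0. In these cases the cause was not tested, beyond fewer libraries in a single batch.

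Leaving out 1 library at a time gave 2 to 4 genes for BCAM HI against BCAM LO, 5 to 5 against DIFFERENTIATED and 4 to 5 for BCAM LO against DIFFERENTIATED. Within batch 1 and batch 2 of BCAM HI against BCAM LO it gave 1 to 2 and 2 to 5, within batch 2 against DIFFERENTIATED 3 to 5 for BCAM HI and 1 to 2 for BCAM LO. Batch differences were called for 0 to 1, 2 to 4 and 4 to 5 genes in the 3 comparisons, changes between batches for 0 to 2, 1 to 3 and 3 to 4 genes in BCAM HI, BCAM LO and DIFFERENTIATED, and correlations for 0 to 0 pairs. Within batch 2, without DIFFERENTIATED 8, BCAM HI against DIFFERENTIATED gave 0.77 for Scgb3a2 (-0.85 to 0.77 over libraries left out) and 1.27 for Bpifa1 (-0.55 to 1.27). Bpifb1 in BCAM LO against DIFFERENTIATED gave 0.03, 0.04 and 1.47 without BCAM LO 6, BCAM LO 7 and DIFFERENTIATED 8 (-0.52 to 1.47), and Scgb1a1 -0.13 without DIFFERENTIATED 7 (-0.13 to 1.05). Between the batches of BCAM HI, with no filter 0 genes were called and Scgb1a1 was -0.037; without BCAM HI 1, 2, 3, 5 and 6 Scgb1a1 was -0.20, -0.08, -0.16, -0.13 and -1.11 (-1.11 to 0.84), and without BCAM HI 8 Scgb3a1 was -0.69 (-0.69 to 0.72) and Scgb3a2 -0.10 (-0.10 to 0.26).

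Over all genes, BCAM HI against BCAM LO called 857 genes, 545 without the batch term, 1297 with only the 2 groups and 543 in batch 2 alone. BCAM HI against DIFFERENTIATED called 5044, and 7688 and 7713 with limma on TPM; BCAM LO against DIFFERENTIATED called 4086, and 2221 in batch 2 alone. With the replicate block in place of batch, 2, 5 and 4 genes were called in the 3 comparisons (864, 5129 and 4136 of all genes). With the block, the call that changed among the 5 genes was that of Bpifb1 between BCAM HI and BCAM LO. Scgb1c1 was too low for a test.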
